A study of Mus musculus with 8 samples.

Results

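The transcription factors and cofactors that mark the progenitors of head muscle in the pharyngeal arches were examined in embryos lacking Isl1. They comprise 9 genes, Tcf21, Msc, Six2, Six4, Eya1, Eya4, Lhx2, Pitx1 and Myf5, chosen by name from the 20701 gene symbols of the deposited table. Where a symbol had several transcript entries, the entry with the most reads was used. RNA was sequenced from the dissected pharyngeal mesoderm and heart of single C57BL/6 mouse embryos at E8.75, the stage of 6 somites. The 4 knockout embryos were Isl1-/- and the 4 controls carried wild-type Isl1. The knockout line is constitutive and dies early in embryogenesis, so the mutation was not confined to a chosen cell type. The libraries held all cells of the dissected region. Knockout embryo 2 was labelled as total RNA and the other 7 libraries as polyA RNA.

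The head muscles derived from the pharyngeal arches do not arise from somites. They form from the mesodermal core of the pharyngeal arches, which shares its origin with the second heart field, the progenitor population that Isl1 marks and that adds cells to the growing heart tube. In the arch core, Tbx1, the basic helix-loop-helix (bHLH) repressors Tcf21 and Msc, and Lhx2 act upstream of the myogenic determination factors Myf5 and Myod1. Sine oculis homeodomain proteins, such as Six2 and Six4, bind DNA, and EYA proteins, which bind none themselves, join them as coactivators. The comparison of genotypes asked whether the RNA of these genes differed in the Isl1-/- embryos.

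All 9 are protein-coding genes of the mm9 genome (GENCODE vM1 annotation). Several lie close together. Eya1 (chr1:14159035-14300281, minus strand) and Msc (chr1:14743427-14746047, minus strand) are 443.1 kb apart on chromosome 1, and Tcf21 (chr10:22537085-22539934, minus strand) and Eya4 (chr10:22823974-23069701, minus strand) are 284 kb apart on chromosome 10, with 0 annotated protein-coding genes between the members of either pair. Myf5 (chr10:106919964-106923190, minus strand) lies 6.72 kb from Myf6, a later myogenic factor. Six2 (chr17:86083608-86087594, minus strand) lies 52.5 kb from its paralogue Six3. Six4 is at chr12:74201246-74214401 (minus strand), Lhx2 at chr2:38194801-38225253 (plus strand) and Pitx1 at chr13:55926415-55937553 (minus strand). Isl1 itself is also on chromosome 13 (chr13:117088478-117099896, minus strand).

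Promoter sequences from RefSeq (build GRCm38.p6, 250 bases before to 50 bases after the start site) were found for 6 of the 9 genes, as 9 entries. Entries for Msc, Eya1 and Pitx1 were not found. Both strands were searched for CTAATG, a core bound by LIM homeodomain factors of the Isl1 type, for CAGCTG, an E-box bound by bHLH factors, and for TCAGGT, part of the MEF3 site bound by sine oculis factors; the motifs do not overlap each other in these windows. CTAATG was present only in the Myf5 entry, on the minus strand at position -130 from the start site, and TCAGGT only in the first Six4 entry, on the minus strand at position -96. CAGCTG was in none of the 9 entries. Of 32851 mouse promoters of the same length, 7.36% held CTAATG, 16.3% CAGCTG and 14.5% TCAGGT. The 250 bases before the start site are shown for the pair of genes with a match, whose match is in capitals (CATTAG and ACCTGA, the reverse complements), and for Six2 and Tcf21, the pair with the lowest p-values between genotypes, which held none of the 3 motifs. The windows are chr10:107486135-107486384 for Myf5, chr12:73113246-73113495 for Six4, chr17:85688255-85688504 for Six2 and chr10:22820144-22820393 for Tcf21, all on the minus strand of GRCm38.p6 and written 5′ to 3′ along the gene.
Myf5: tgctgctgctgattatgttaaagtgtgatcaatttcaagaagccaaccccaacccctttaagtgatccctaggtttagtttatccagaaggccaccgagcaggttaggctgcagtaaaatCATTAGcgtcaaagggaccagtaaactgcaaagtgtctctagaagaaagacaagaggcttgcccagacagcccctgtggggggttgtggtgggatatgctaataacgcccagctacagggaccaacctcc
Six4: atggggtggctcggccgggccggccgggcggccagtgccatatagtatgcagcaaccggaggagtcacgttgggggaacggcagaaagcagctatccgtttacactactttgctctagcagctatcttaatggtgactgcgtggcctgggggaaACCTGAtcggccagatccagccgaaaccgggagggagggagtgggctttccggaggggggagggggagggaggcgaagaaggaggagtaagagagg
Six2: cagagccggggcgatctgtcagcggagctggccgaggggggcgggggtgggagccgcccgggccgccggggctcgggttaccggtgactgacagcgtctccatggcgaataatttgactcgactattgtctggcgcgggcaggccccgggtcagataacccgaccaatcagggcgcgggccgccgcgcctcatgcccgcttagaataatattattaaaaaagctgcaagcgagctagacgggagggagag
Tcf21: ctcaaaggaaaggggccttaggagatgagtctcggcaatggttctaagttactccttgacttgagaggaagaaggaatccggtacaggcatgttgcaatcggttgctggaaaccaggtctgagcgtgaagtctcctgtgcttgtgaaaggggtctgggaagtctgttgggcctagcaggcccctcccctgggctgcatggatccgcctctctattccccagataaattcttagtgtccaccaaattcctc

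Libraries held 18916452 to 26153039 reads over 1 entry per symbol, with knockout embryos 3 and 4 the shallowest. Levels are given as CPM, counts per 1e6 reads after TMM scaling, and 3 reads, the smallest number taken as detection, equalled 0.114 to 0.157 CPM. These limits cover counting error only. Values per embryo are given in the order of the embryo numbers. Isl1 RNA measured 9.72, 9.76, 26.9 and 23.3 CPM in the controls but 2.32, 2.16, 1.78 and 2.4 CPM in the knockouts, a log2 fold change of -3.00 (edgeR, FDR 0.0041). The knockout values lay above the limit of detection, so some Isl1 RNA remained. All 6 pharyngeal mesoderm markers checked, Tcf21 among them, and all 6 cardiomyocyte markers were detected, as the tissue label would have it. Y-linked reads were present in wild-type embryo 4 and in knockout embryos 1, 3 and 4. Wild-type embryo 3 stood apart from the other controls, with the highest summed level of the pharyngeal mesoderm markers (136 CPM against 58.0 to 80.6 in the other controls) and the lowest of the cardiomyocyte markers (2544 against 3355 to 3738 CPM). Without this library 490 genes passed the test instead of 137, and leaving out wild-type embryo 1, 2 or 4 or knockout embryo 1 or 4 gave 73, 85, 85, 81 and 70.

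None of the head muscle factors differed between genotypes beyond the test. Of the 9 genes, 8 had enough reads to be fitted and 0 passed an FDR of 0.05, against 0.973% of the 14075 genes tested. At an unadjusted p under 0.05 edgeR gave 0 higher and 0 lower, where all genes gave 7.37% higher and 10.1% lower. DESeq2 gave 0 past its FDR among the 7 for which it returned one (none for Myf5). Over all 14075 genes fitted it called 709. Its unadjusted p for Six2 was 0.0276, at a log2 fold change of 0.69 (DESeq2 FDR 0.196). The wild-type and knockout libraries overlapped for all 8, and they did not overlap for 10.3% of genes tested. With only 8 genes, counts of 0 lie near these shares and do not set the factors apart from all genes. The estimates were above 0 for 7 genes and below 0 for Lhx2, where 51.2% of all genes tested were above 0. Of the 7, Pitx1 (0.01) and Six4 (0.07) changed sign in some alternatives. The median log2 fold change was 0.22 against 0.01 over all genes tested. The 95% interval of each gene, given with its values, spanned 0 and bounded the change that 4 embryos a group left possible; its ends lay at -0.25 and 0.38 on the log2 scale for Six4 and at -0.31 and 1.82 for Myf5, the narrowest and the widest named here. Each library is 1 dissection of mixed tissue, and fewer cells of a type cannot be told apart from less RNA per cell.

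**Figure D1:**
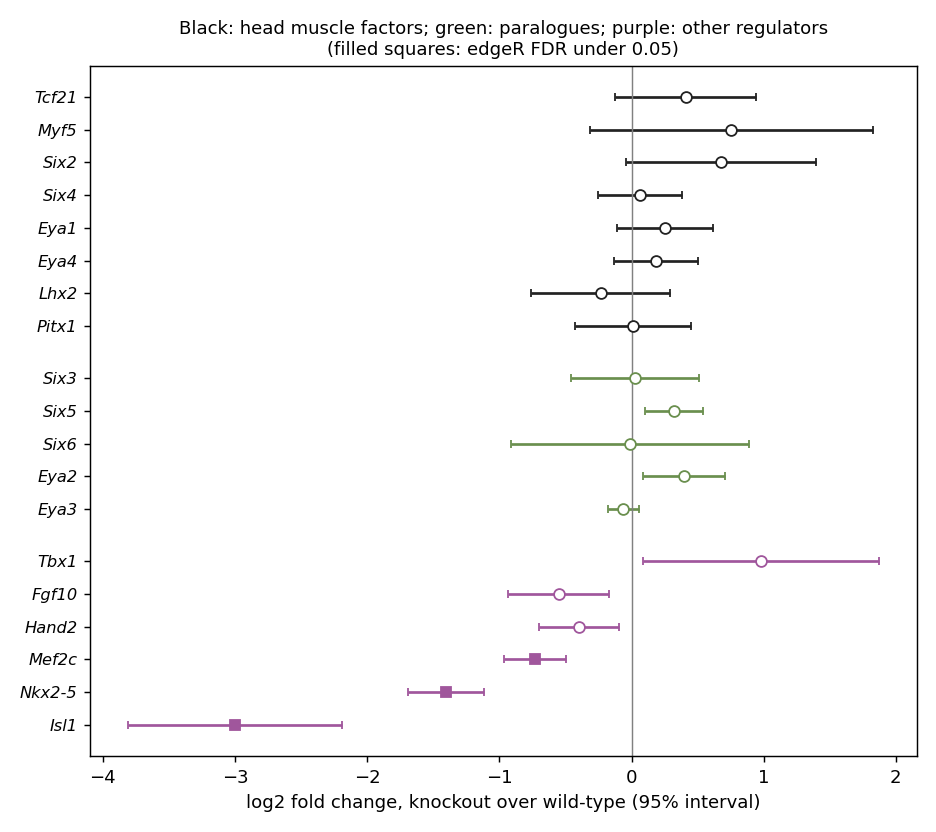
Log2 fold change of knockout over wild-type embryos from edgeR with its 95% interval (horizontal axis) for the 8 fitted head muscle factors (black), paralogues from the same families (green) and other regulators of arch and heart mesoderm (purple). Every black interval spans 0, whereas Mef2c, Nkx2-5 and Isl1 (filled squares, FDR under 0.05) lie wholly to the left of it. Without passing the FDR, Fgf10 and Hand2 also lie wholly to the left, and Tbx1, Six5 and Eya2 wholly to the right.

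Tcf21 and Msc are bHLH repressors of the arch core that precede the onset of Myf5 and Myod1. Tcf21 was at 2.75, 3.99, 5.82 and 5.78 CPM in the wild-type embryos and at 6.80, 5.35, 5.23 and 7.0 CPM in the knockouts. Wild-type embryos 1 and 2 were lowest, while wild-type embryos 3 and 4 lay inside the range of the knockouts. The fold was 1.33 with an interval from 0.918 to 1.92 (log2 fold change 0.41, SE 0.24, edgeR FDR 0.41). Without wild-type embryo 1 the log2 fold change was 0.23.

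Msc was at the limit of detection. It had 3, 2, 6 and 6 reads in the wild-type libraries and 3, 2, 2 and 0 in the knockouts, 17 against 7 in all. Knockout embryo 4, in which Tcf21 was highest, was the library without any Msc read. A fit without the filter on low counts gave a log2 fold change of -1.11 (SE 0.718, edgeR FDR 0.499). No difference in Msc was thus detected with these few reads.

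Myf5 encodes the first of the myogenic determination factors to appear in the embryo. It was represented by 6, 17, 7 and 23 reads in the wild-type libraries and by 25, 12, 14 and 31 reads in the knockouts, that is by 0.250, 0.754, 0.295 and 0.874 CPM against 0.966, 0.497, 0.732 and 1.52 CPM. Knockout embryo 4 was highest and wild-type embryos 1 and 3 were lowest, with the remaining 5 libraries interleaved. The fold of 1.69 had the widest interval of the set, from 0.804 to 3.54 (log2 fold change 0.75, SE 0.48, edgeR FDR 0.444). Leaving out 1 library moved the log2 fold change to between 0.42 (without knockout embryo 4) and 1.09 (without wild-type embryo 4), and a term for Y-linked reads moved it to 0.26.

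Several other genes of the muscle programme were barely detected. Myod1, the partner of Myf5 in determination, had 4 reads in the 4 wild-type libraries together and 12 in the knockouts. Myog, which drives differentiation, had 0 and 3 reads, Myf6 had 5 and 5, and Lbx1, a factor of migrating muscle precursors, had 4 and 3. Of the 10 myogenic genes listed outside the set, 5 could be tested: Pax3, Pax7, Met, Mef2c and Des. Not all of these act after Myf5. Past an FDR of 0.05, 0 were higher and 1 was lower. This was Mef2c, which is also a factor of the second heart field and of cardiomyocytes, at 95.2 to 113 CPM in wild-type and 50.4 to 70.3 CPM in knockout embryos (log2 fold change -0.73, edgeR FDR 0.0098). Des, which encodes the intermediate filament protein of both skeletal and heart muscle, had the same log2 fold change of -0.73 but missed the threshold (edgeR FDR 0.0609); DESeq2 called both Mef2c and Des lower.

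**Figure D2:**
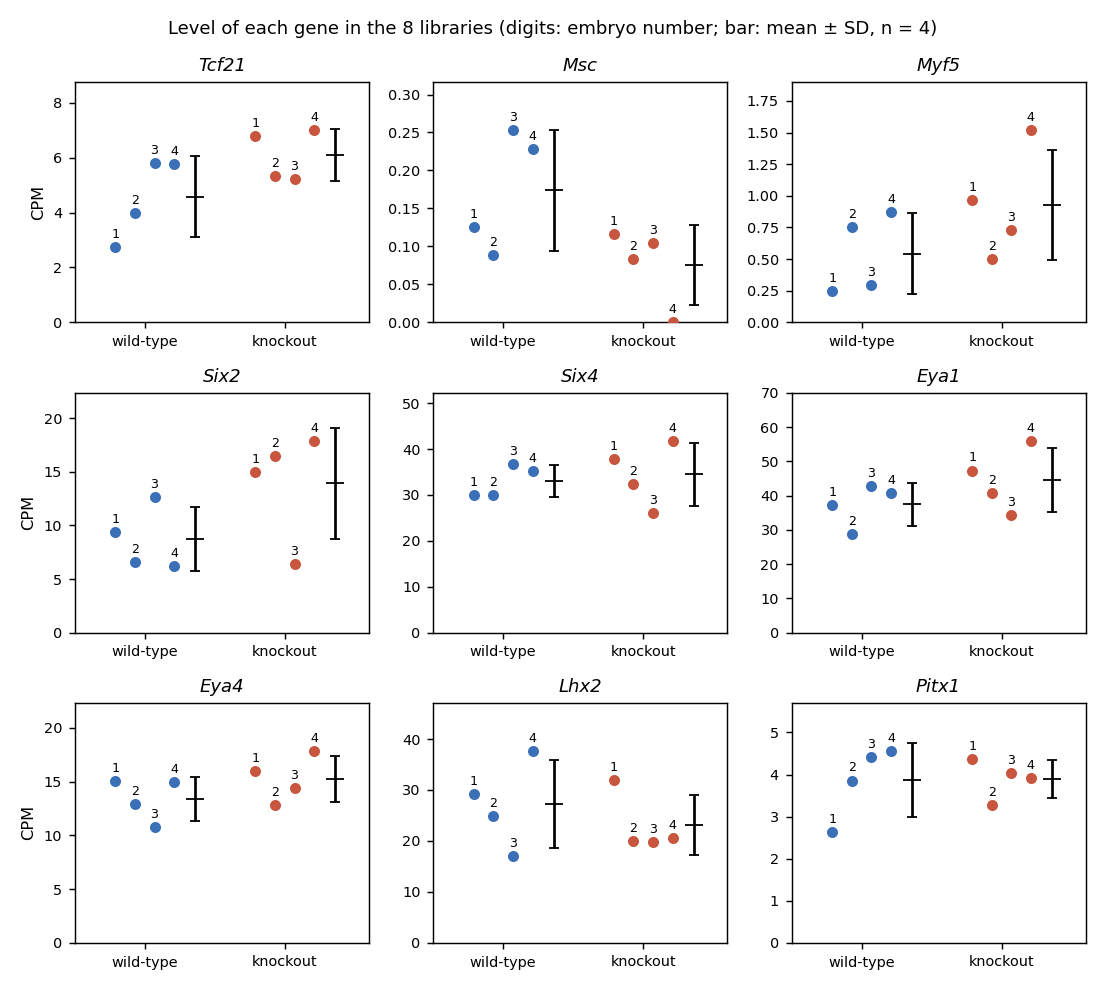
CPM of each of the 9 head muscle factors (vertical axes, linear from 0) in wild-type (blue) and knockout (red) embryos, numbered by embryo, with the mean ± SD of 4 libraries in black. The groups overlap for every gene, and knockout embryo 4 is the highest library for Tcf21, Myf5, Six2, Six4, Eya1 and Eya4.

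Among the sine oculis factors, Six2 came closest to the threshold. Six2 is active in cranial mesenchyme as well as in head mesoderm. It was at 9.39, 6.61, 12.7 and 6.20 CPM in the wild-type embryos and at 15, 16.5, 6.38 and 17.9 CPM in the knockouts, or 8.72 ± 3.0 against 13.9 ± 5.18 CPM (mean ± SD, n = 4). Knockout embryos 1, 2 and 4 were above all controls, whereas knockout embryo 3 was as low as the lowest controls. The fold was 1.6 with an interval from 0.971 to 2.63 (log2 fold change 0.68, SE 0.32, edgeR FDR 0.318). Without knockout embryo 3 the log2 fold change was 0.92 (edgeR FDR 0.14), and without wild-type embryo 3 it was also 0.92 (edgeR FDR 0.13).

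Six4, a factor of myogenic progenitors, was at 30.05, 30.02, 36.7 and 35.3 CPM in the wild-type embryos and at 37.9, 32.3, 26.1 and 41.9 CPM in the knockouts. The lowest and the highest library were both knockouts, embryos 3 and 4. The fold was 1.05 with an interval from 0.839 to 1.30 (log2 fold change 0.07, SE 0.14, edgeR FDR 0.844), and its sign changed to -0.04 when knockout embryo 4 was left out.

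The EYA coactivators were estimated slightly higher in the knockouts without passing the test. Eya1 was at 37.3, 28.8, 42.9 and 40.6 CPM in the wild-type embryos and at 47.3, 40.8, 34.2 and 56.1 CPM in the knockouts. Knockout embryos 1 and 4 exceeded all controls and knockout embryo 3 lay below 3 of them. The fold was 1.19 with an interval from 0.925 to 1.53 (log2 fold change 0.25, SE 0.16, edgeR FDR 0.454), and the log2 fold change was 0.12 without knockout embryo 4 and 0.15 without wild-type embryo 2. Eya4 was at 15.1, 12.9, 10.7 and 14.9 CPM in the wild-type embryos and at 16.0, 12.8, 14.4 and 17.9 CPM in the knockouts. Again knockout embryos 1 and 4 were highest, and the remaining pair lay within the range of the controls. The fold of Eya4 was 1.14 with an interval from 0.911 to 1.42 (log2 fold change 0.19, SE 0.14, edgeR FDR 0.541), and the log2 fold change was 0.09 without wild-type embryo 3 and 0.10 without knockout embryo 4. Eya1 had 3 transcript entries in the table, and Eya4 and Lhx2 had 2 each. The entries left aside held 91.7% to 99.6% of the reads of the entry kept, so they counted largely the same reads.

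None of the 8 paralogues of the sine oculis, EYA and DACH families outside the set passed an FDR of 0.05 in edgeR or DESeq2, with a median log2 fold change of 0.127. At an unadjusted p under 0.05 there were 2, Eya2 and Six5. Eya2 had a log2 fold change of 0.40 (edgeR FDR 0.193) and Six5 one of 0.32 (edgeR FDR 0.148). Eya3, the most abundant of the family, gave -0.06 on the log2 scale, with an interval from -0.18 to 0.06.

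Levels per transcript length, as deposited RPKM, allowed the make-up of the EYA family to be compared. Summed EYA RPKM was 26.3 ± 1.97 in wild-type and 29.0 ± 2.65 in knockout embryos (mean ± SD, n = 4). Eya1 made up 19.1 ± 2.70% of the EYA sum in wild-type and 21.3 ± 2.75% in knockout embryos (exact permutation p = 0.286, adjusted 0.476), and Eya4 5.61 ± 0.684% and 6.02 ± 0.512% (exact permutation p = 0.429, adjusted 0.536). Eya3 made up 62.0 ± 2.17% and 56.3 ± 4.51%, with overlap (exact permutation p = 0.0571, adjusted 0.19). The adjustment ran over 10 shares compared, of which those of the EYA family are given. Eya2 made up 13.3 ± 0.661% and 16.4 ± 1.95% without overlap, which reached the smallest p the design allows (exact two-sided permutation test, p = 0.0286) but not after adjustment (0.143). Shares of one sum depend on each other.

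**Figure D3:**
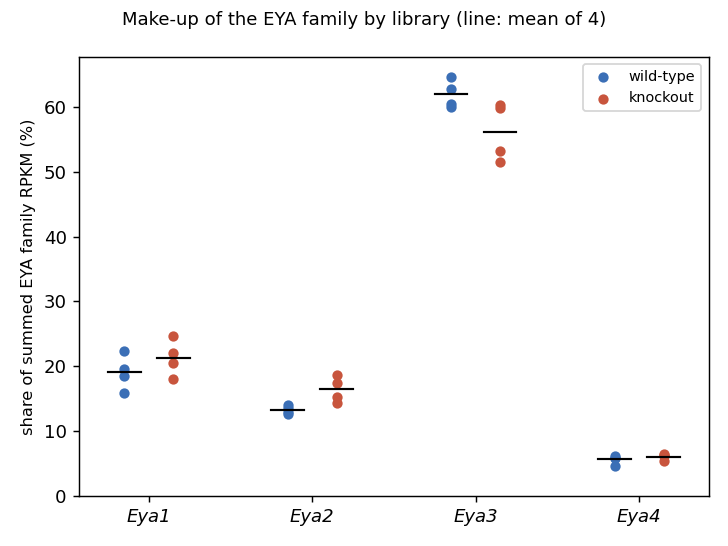
Share of each gene in the summed RPKM of the EYA family (vertical axis, percent) in the 4 wild-type (blue) and 4 knockout (red) libraries, with lines at the means. The Eya1 and Eya4 points of the genotypes overlap, the Eya2 points do not, and Eya3 alone makes up 62.0% of the sum in wild-type embryos.

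The homeodomain factors Lhx2 and Pitx1 showed no shared trend. Lhx2 encodes a LIM-homeodomain protein of the same superfamily as Isl1, and it also acts in the eye field and forebrain. It was at 29.2, 24.8, 17.1 and 37.7 CPM in the wild-type embryos and at 31.9, 20.1, 19.8 and 20.6 CPM in the knockouts. Knockout embryos 2, 3 and 4 lay between wild-type embryos 3 and 2, the lowest controls, whereas knockout embryo 1 was second only to wild-type embryo 4. The fold was 0.850 with an interval from 0.589 to 1.23 (log2 fold change -0.23, SE 0.24, edgeR FDR 0.648). Without wild-type embryo 4 the log2 fold change was -0.04, and without wild-type embryo 3 or knockout embryo 1 it was -0.40 or -0.43.

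Pitx1, a paired-like factor of the first arch and of hindlimb, was at 2.63, 3.86, 4.42 and 4.56 CPM in the wild-type embryos and at 4.37, 3.27, 4.03 and 3.92 CPM in the knockouts. All knockouts lay inside the range of the controls. The fold was 1.01 with an interval from 0.743 to 1.37 (log2 fold change 0.01, SE 0.20, edgeR FDR 0.984). Of the 11 LHX and PITX paralogues and LIM cofactors listed, 7 could be tested and 0 passed an FDR of 0.05 in edgeR or DESeq2; at an unadjusted p under 0.05 there were 1 higher and 1 lower.

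Per transcript length, the head muscle factors spanned a wide range of levels. Their order by mean wild-type RPKM was Lhx2 (6.92), Eya1 (5.04), Six4 (3.45), Six2 (2.41), Tcf21 (2.18), Eya4 (1.48), Pitx1 (0.922), Myf5 (0.152) and Msc (0.0593). Lhx2 stood at percentile 55.9 of the genes tested and Myf5 at 4.17. Eya1 exceeded Six4, Eya4 exceeded Pitx1 and Pitx1 exceeded Myf5 in all 8 libraries. Tcf21 exceeded Eya4 in 7 libraries, and Myf5 exceeded Msc in 7. Six4 exceeded Six2 in 4 of 4 wild-type libraries but in only 1 of 4 knockouts. Lhx2 exceeded Eya1 in 3 wild-type libraries and 5 of all 8, and Six2 exceeded Tcf21 in 2 and 5, so these neighbours were not separated beyond their spread.

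**Figure D4:**
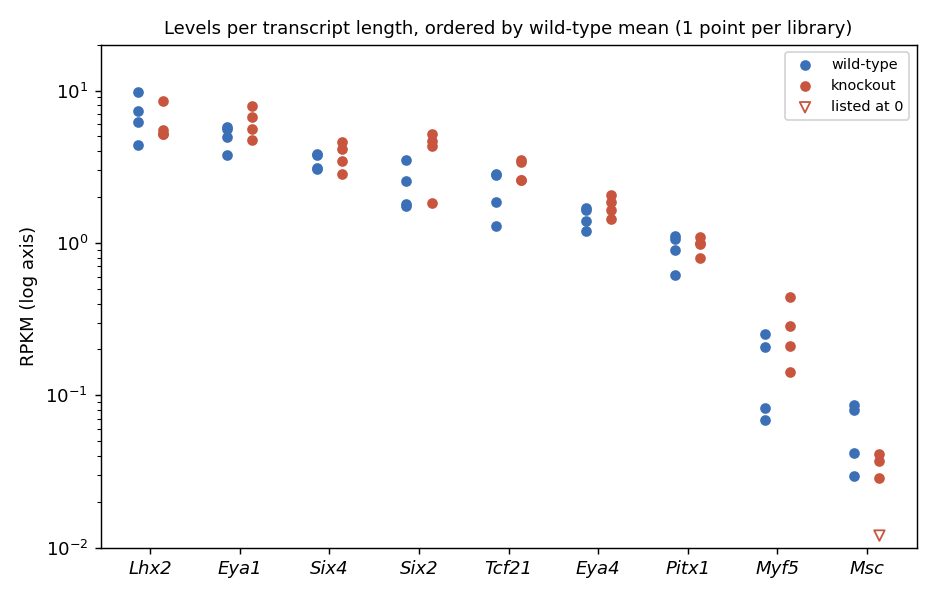
RPKM of the 9 head muscle factors (vertical axis, log scale) in each wild-type (blue) and knockout (red) library, ordered by the wild-type mean, with the library listed at 0 for Msc as an open triangle at the lower edge. Values fall from 9.82 for the highest Lhx2 library to under 0.1 for Msc, and the genotypes intermingle at every gene.

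Several of these genes varied among embryos of one genotype more than most genes of like level. The SD of log2 CPM within genotypes was 0.41 for Lhx2, 0.59 for Six2 and 0.28 for Eya1, which placed them at percentiles 95.4, 94.9 and 93.8 of the 1000 tested genes nearest in mean level. Six4 was at percentile 87.7, Myf5 at 83.3, Tcf21 at 79.1, Eya4 at 65.8 and Pitx1 at 52.9. The pattern most like that of Six2 over the 8 libraries, by the root mean square difference of centred log2 CPM, was shown by 4930426D05Rik (0.237), Ubxn10 (0.239) and Sox18 (0.241), where the excursion of Six2 itself was 0.599. For Tcf21, the nearest genes were Zfp385b (0.104), Med18 (0.117) and Xkr5 (0.137), against an excursion of 0.406.

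Marker lists of neighbouring tissues moved with some of the factors from library to library. The pairs of gene and list shown here were chosen after their values were seen. The 10 eye field and forebrain markers summed to 271, 228, 180 and 269 CPM in the wild-type embryos and to 288, 191, 223 and 208 CPM in the knockouts. Wild-type embryo 3 was lowest for this sum and for Lhx2, and wild-type embryos 1 and 4 and knockout embryo 1 were the highest 3 libraries for both. None of the 10 markers, which include Six3 and Six6, passed an FDR of 0.05 between genotypes in edgeR (median log2 fold change -0.067); 1, Hesx1, was lower at an unadjusted p under 0.05 and in DESeq2. For Myf5, the 10 somite and presomitic mesoderm markers summed to 75.6, 113, 92.2 and 132 CPM in the wild-type embryos and to 133, 89.4, 121 and 134 CPM in the knockouts. The lowest library, wild-type embryo 1, and the highest, knockout embryo 4, were the same as for Myf5, and 0 of the 7 markers tested passed the FDR threshold in edgeR or DESeq2, or an unadjusted p under 0.05 (median log2 fold change 0.241).

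The summed level of the 19 markers of cranial neural crest and arch mesenchyme ordered the knockout embryos as Six2 did. The markers summed to 453, 425, 457 and 447 CPM in the wild-type embryos and to 503, 532, 370 and 634 CPM in the knockouts. Knockout embryos 1, 2 and 4 thus lay above and knockout embryo 3 below every control. Among the controls the orders differed, with embryo 2 lowest for the sum and embryo 4 for Six2. A sum is weighted to the most abundant markers. Of these markers 0 passed an FDR of 0.05 in edgeR or DESeq2, and 1 was higher and 1 lower at an unadjusted p under 0.05. Estimates were above 0 for 16 of 19 (median log2 fold change 0.163), where 51.2% of all genes tested were above 0. The part of such tissue in the levels of Lhx2, Myf5 and Six2 was not tested. No marker of these 3 lists was at 0 in all libraries.

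**Figure D5:**
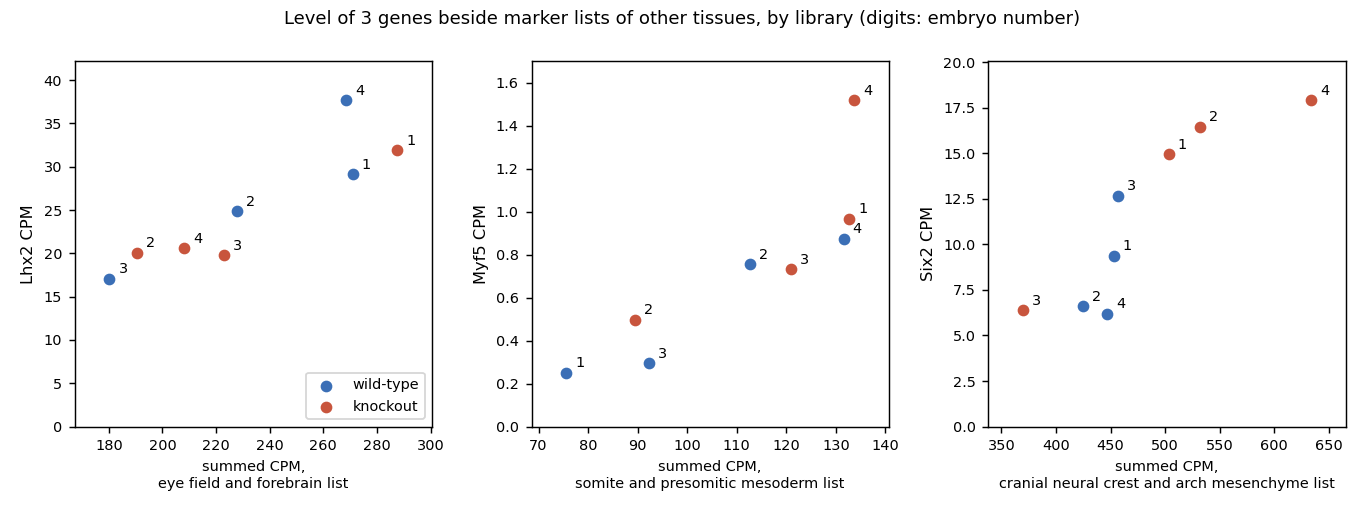
CPM of Lhx2, Myf5 and Six2 (vertical axes, from 0) against the summed CPM of the eye field and forebrain, somite, and neural crest and arch mesenchyme markers (horizontal axes, not from 0) in the 4 wild-type (blue) and 4 knockout (red) libraries, numbered by embryo. The library with the lowest sum and the one with the highest sum are also lowest and highest for Myf5; among the knockouts, Lhx2 follows its list only through embryo 1, the other 3 lying at 19.8 to 20.6 CPM.

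Other lists of tissues the dissection could hold also gave 0 genes past an FDR of 0.05 in edgeR. These were pharyngeal endoderm (10 of 10 markers tested), surface, placodal and otic ectoderm (12 of 12), proepicardium (6 of 6), intermediate mesoderm (5 of 5), posterior mesoderm and tail bud (2 of 10), primitive erythroid cells (5 of 5) and visceral endoderm (5 of 5). At an unadjusted p under 0.05 there were 2 genes, Hhex of the endoderm (lower) and Foxi2 of the ectoderm (higher), and DESeq2 called the same pair; these and Hesx1 are named after their values were seen. As a sum, though not for every marker, the posterior list was highest in knockout embryo 4. Its summed level was 25.8 CPM there and 5.34 to 18.0 CPM in the other libraries, and Cdx4, a caudal homeobox gene below the filter, had 68 reads in knockout embryo 4 and 0 to 4 elsewhere. Hoxa9 had 65 reads there, 10 in knockout embryo 3 and 0 to 2 in the rest, and Hoxa10 had 38, 7 and 0 to 1. These genes are named after their values were seen, and other markers of the list did not follow them. T, its most abundant marker, had 360 reads (15.2 CPM) in wild-type embryo 3 and 202 (9.89 CPM) in knockout embryo 4. Tbx4 had 10 reads in wild-type embryo 3 and 2 in knockout embryo 4, and Hoxc10 had 0 in all libraries. Knockout embryo 4 was also the highest library for 6 of the 9 head muscle factors, and the part of posterior tissue in their levels was not tested. The summed visceral endoderm markers ranged from 347 to 3059 CPM in wild-type and from 268 to 4485 CPM in knockout embryos, so this RNA differed widely among embryos of either genotype.

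The other regulators of branchiomeric mesoderm, as the muscle- and heart-forming mesoderm of the arches is called, contained genes that did fall. Of the 14 listed, 13 could be tested, 0 were higher and 2 were lower past an FDR of 0.05, with a median log2 fold change of 0.03. The pair was Isl1 itself and Nkx2-5, a cardiac homeodomain factor, at 22.5 to 29.4 CPM in wild-type and 8.22 to 10.9 CPM in knockout embryos (log2 fold change -1.40, edgeR FDR 0.00186). Tbx1, Fgf10 and Hand2 passed only an unadjusted p under 0.05 and are named after their values were seen. Tbx1, a T-box factor required for the arches and their muscle, was at 9.01, 7.32, 25.5 and 9.43 CPM in the wild-type embryos and at 27.1, 24.6, 14.2 and 35.0 CPM in the knockouts (log2 fold change 0.98, edgeR FDR 0.248). As with Six2, wild-type embryo 3 was the highest control and knockout embryo 3 the lowest knockout. Fgf10, a ligand of the second heart field, had a log2 fold change of -0.55 (edgeR FDR 0.148), and Hand2, a bHLH factor of arch and heart, one of -0.39 (edgeR FDR 0.187). By contrast with the head muscle factors, all 6 cardiomyocyte markers were lower in the knockouts past an FDR of 0.05, with a median log2 fold change of -0.902.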

How the data were processed

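RNA-seq libraries were made from single E8.75 embryos, 4 wild-type and 4 Isl1-/-. The authors mapped reads to mm9 with STAR and deposited raw read counts per RefSeq transcript, counted over exons on both strands with HOMER, so reads of antisense genes could not be told apart. The deposited RPKM values were computed by the authors with edgeR. The length column deposited by the authors held transcript lengths in bases. Tool versions were not given in the sources used here. The table also held the authors' DESeq2 means, fold changes, statistics and p-values, which were not used. Members and gene lists were chosen with earlier results of these data known.

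The entry with the highest summed count stood for each symbol (31507 entries in all). Counts were filtered with filterByExpr, scaled by TMM and fitted by genotype with the quasi-likelihood test of edgeR 4.0.16 (R 4.3.3, two-sided) on 14075 genes, adjusted by Benjamini-Hochberg over all of them (FDR). Single values were compared by exact permutation tests, smallest p 0.0286. Totals were 18916452 to 26153039 reads. Patterns used log2 CPM with a prior count of 2. Named genes were the 9 factors, Isl1, listed genes past an FDR of 0.05, sine oculis and EYA paralogues (some are not reported here), and the 3 genes nearest in pattern to each of the 2 factors with the lowest p. Alternatives were RLE size factors, no filter, a filter of 1 CPM in 4 libraries, DESeq2 1.42.0, limma 3.58.1 on log2(RPKM + 1), the longest transcript, a replicate block, a term for Y-linked reads, a prior count of 0.5 and leaving out libraries. No duplicated library was seen: over the 28 pairs, the chi-square per degree of freedom was 7.86 or more. Embryos were separate, so p-values measure the spread between embryos.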

Additional observations from a re-analysis of the deposited data

Results flagged for a closer look

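Among the 18 sets of 4 libraries examined for the 9 factors, 1 held a library far from the others: Lhx2 in knockout embryo 1, at 31.9 CPM against 19.8 to 20.6 CPM in the other knockouts. The gap was 0.934 of the range, above Dixon's 95% critical value for 4 libraries. Chance flags about 1 in 20 such groups. The same library had the highest sum of eye field and forebrain markers, 288 CPM against 191 to 223 CPM in the other knockouts; their part in the Lhx2 level was not tested.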

How the results depend on the processing

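None of the fitted head muscle factors passed an FDR of 0.05 under the 17 alternatives, except that Myf5 fell to the stricter filter and got no FDR from DESeq2 (p 0.18), so that neither gave it a call. Six2 ranged from 0.52 to 0.93 (log2 fold change) with a lowest FDR of 0.13. Its unadjusted p fell under 0.05 with DESeq2 (0.0276) and in some edgeR alternatives. These were no filter (0.0482) and a term for Y-linked reads (0.0298). The others left out wild-type embryo 3 (0.0192), knockout embryo 3 (0.00422) or both of knockout embryos 3 and 4 (0.017). Eya1 fell under it only without knockout embryo 3 (edgeR p 0.0432). The number of all genes past an FDR of 0.05, 137, became 709 with DESeq2, 76 with the replicate block and 35 without both of knockout embryos 3 and 4. It became 70 to 490 when 1 library was left out (lowest without knockout embryo 4, highest without wild-type embryo 3). The cause was not tested. Same-numbered embryos deviated together with correlations of 0.109, 0.212, 0.0863 and 0.507 for numbers 1 to 4, all above 0. These values do not settle whether the numbers are pairs, and the main fit did not take them as such. The replicate block changed the call of no factor. The sign of Pitx1 changed to -0.15 with a term for Y-linked reads and to -0.0174 without knockout embryos 3 and 4, and leaving out 1 library gave -0.134 to 0.0991; Six4 ranged from -0.0394 (without knockout embryo 4) to 0.178 there. Isl1 kept its decrease but lost the threshold without knockout embryos 3 and 4 (-2.96, FDR 0.11). The median of all genes was 0.01 with TMM, 0.01 with RLE and 0.04 with limma. With Y-linked reads in 3 of 4 knockouts and 1 of 4 controls, that term also moved Myf5 from 0.75 to 0.26, Eya4 from 0.19 to 0.05, Tcf21 from 0.41 to 0.24, Lhx2 from -0.23 to -0.44 and Six4 from 0.07 to 0.00109. Myf5 had 6 to 31 reads a library and Msc 0 to 6.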
